A study of Mus musculus with 2 samples.

Results

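The 10 genes described here encode the adaptor Lat, its partner adaptor Lcp2 (SLP-76), the CD3 chains of the T cell receptor complex (Cd3e, Cd3d, Cd3g and Cd247), the coreceptors Cd4, Cd8a and Cd8b1, and the receptor regulator Cd5. They were chosen by name, and a probe was counted when its only annotated gene symbol was 1 of these names. All 10 had such a probe, 1 probe each, among 4331 genes named in this way. Total RNA of splenic CD4+ alpha beta T cells from LatY136F mice was set against that of the same cells from wildtype mice, both RNAs being hybridised to each of 2 two-colour arrays. Cells of both genotypes were taken from spleen with anti-CD4 beads and sorted. Array 1 (+ polarity) held LatY136F RNA in channel 2 and wildtype RNA in channel 1, and array 2 (- polarity) held LatY136F RNA in channel 1 and wildtype RNA in channel 2. The labels give no age, no number of mice and no statement on separate RNA extracts, so the arrays were counted as 1 comparison and no p-value was computed. LatY136F is a substitution of phenylalanine for a tyrosine of the Lat protein and leaves the gene's transcript in place, so a Lat ratio does not check the genotype.

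When a T cell receptor meets its ligand, the kinase Lck, held by the CD4 or CD8 coreceptor, phosphorylates the CD3 chains. The kinase ZAP-70 then docks on those chains and phosphorylates Lat and SLP-76, which assemble phospholipase C-gamma 1 and other effectors at the membrane. The tyrosine changed in LatY136F is known as the docking site for phospholipase C-gamma 1, and mice with this allele are known for an expansion of CD4+ T cells of the T helper 2 (Th2) type with little T cell receptor on their surface. Surface protein was not measured here.

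Each deposited value is a log ratio of the 2 channels of an array. Values were read as log10 of channel 2 over channel 1, the sign of array 2 was turned, and the median over all 8014 probes was subtracted on each array. Neither the base nor the direction is given in the sources used here. Log10 is likely because array 1 ends at exactly 2, a 100-fold limit. The direction is likely because Gata3, the Th2 transcription factor, then stood at 2.93 ± 0.02 (log2) in LatY136F over wildtype cells; this is a choice of reading and no evidence for it. If the opposite reading holds, every higher below becomes lower. All ratios below are log2 ratios of LatY136F over wildtype, and the value after ± is the distance of either array from their mean, which carries no spread between animals. The level of a gene in either genotype is unknown, since no scanner signal was used.

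Of the 10 genes, 1 (Cd8b1) was lower in LatY136F cells by at least 2-fold on both arrays, and 0 were higher by that much. Over all 4331 genes, 0.970% were lower and 4.20% higher by the same rule. At a threshold of 1.5-fold on both arrays, Lcp2 and Cd5 were higher and Cd8b1 was lower. By that rule 7.83% of all genes were higher and 2.93% lower. The remaining 7 genes, Lat, the CD3 chains, Cd4 and Cd8a, did not reach 1.5-fold on both arrays. The median of the 10 was -0.17, against 0.0004 over all genes.

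**Figure D1:**
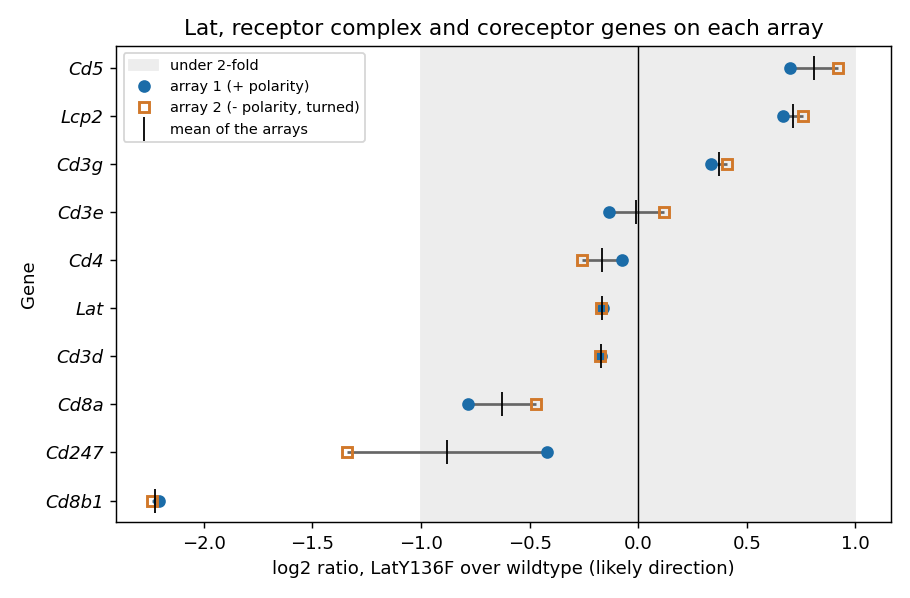
Log2 ratio of LatY136F over wildtype (horizontal axis) of the 10 genes on array 1 (filled circles) and array 2 with its sign turned (open squares); ticks are means of the arrays, lines join them, and the grey band marks ratios under 2-fold. Cd8b1 lies outside the band on both arrays, at -2.21 and -2.24, Cd247 on array 2 only, at -1.34, and the other 8 genes on neither.

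Promoter windows are shown of Lat, whose protein carries the substitution, and of the 2 higher genes, Lcp2 and Cd5. That of Cd8a, the neighbour of Cd8b1, is shown as well. No ratio here rests on these windows. They are RefSeq sequences of build GRCm38.p6, 250 bases before to 50 after an annotated start, 5′ to 3′ on the gene's strand, and 8 of the 10 genes matched an entry by gene identifier (Cd4 and Cd8b1 did not). Capitals mark matches on either strand to the letters AGGAAG (the ETS family), TGTGGT (RUNX), CAGCTG (an E-box) or, for GATA factors, AGATAA, and no match printed here overlaps another.
Lat, chr7:126369519-126369818, minus strand: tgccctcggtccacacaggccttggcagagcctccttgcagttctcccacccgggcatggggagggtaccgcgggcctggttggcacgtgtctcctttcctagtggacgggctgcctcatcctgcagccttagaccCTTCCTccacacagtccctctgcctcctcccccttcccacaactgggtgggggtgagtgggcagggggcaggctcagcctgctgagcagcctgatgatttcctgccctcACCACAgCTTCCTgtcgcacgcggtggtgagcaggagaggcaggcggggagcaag
Lcp2, chr11:34046678-34046977, plus strand: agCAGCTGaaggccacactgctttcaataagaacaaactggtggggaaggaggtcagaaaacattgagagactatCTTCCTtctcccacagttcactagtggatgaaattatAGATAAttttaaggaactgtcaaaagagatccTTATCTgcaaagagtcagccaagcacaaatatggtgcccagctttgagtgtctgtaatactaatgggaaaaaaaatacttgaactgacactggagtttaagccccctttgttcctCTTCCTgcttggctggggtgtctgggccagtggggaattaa
Cd5, chr19:10738925-10739224, minus strand: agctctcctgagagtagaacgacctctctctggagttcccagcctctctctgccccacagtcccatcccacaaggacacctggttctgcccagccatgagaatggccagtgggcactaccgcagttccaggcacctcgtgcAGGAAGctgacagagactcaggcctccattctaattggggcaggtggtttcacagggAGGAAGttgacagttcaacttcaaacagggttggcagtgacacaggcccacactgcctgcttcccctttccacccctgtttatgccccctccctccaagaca
Cd8a, chr6:71373177-71373476, plus strand: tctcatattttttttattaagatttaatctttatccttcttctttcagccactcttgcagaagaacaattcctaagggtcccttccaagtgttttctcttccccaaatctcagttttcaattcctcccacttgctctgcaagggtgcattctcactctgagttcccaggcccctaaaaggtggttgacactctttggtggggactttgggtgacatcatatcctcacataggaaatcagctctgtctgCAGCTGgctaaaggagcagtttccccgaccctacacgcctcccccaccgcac

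The ETS letters stood in 6 of the 8 windows found (Lat, Lcp2, Cd5, Cd3d, Cd3e and Cd247), against 35.4% of 32851 promoter windows of that length. The E-box letters stood in 3 of 8 (Lcp2, Cd3g and Cd8a), against 16.3% of all, the GATA letters in 2 of 8 (Lcp2 and Cd3g), against 11.2%, and the RUNX letters in 1 of 8 (Lat), against 16.8%. Lcp2 and Cd5, the 2 higher genes, share the ETS letters with Lat and 3 CD3 chains that were not higher. A match is only a run of letters and was not tested as a binding site.

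Lat (Entrez gene 16797), the membrane adaptor that carries the substitution, was nearly level between the genotypes. Its deposited log10 values were -0.0524 on array 1 and 0.0585 on array 2, of opposite sign on the dye-reversed arrays. After turning and centring it stood at -0.16 on array 1 and -0.17 on array 2, a mean of -0.17 ± 0.004 (1.12-fold lower). The arrays agreed more closely than for most genes: 0.5 times the difference between arrays had a median of 0.15 over all 4331 genes. A mean of -0.17 lies close to that median, and 48.3% of all genes had a mean nearer to 0 than 0.2. The 3 genes nearest to Lat by Euclidean distance over the 2 arrays were Camsap2 (distance 0.0082), Brd7 (0.0086) and Cd3d (0.0094). As 510 genes lay within 0.2 of Lat, this nearness singles out nothing.

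Lcp2 (Entrez gene 16822) encodes SLP-76, the cytosolic adaptor that joins Lat through the bridging adaptor Gads (Grap2). It stood at 0.67 on array 1 and 0.76 on array 2, a mean of 0.71 ± 0.05 (1.64-fold higher in LatY136F). Both arrays passed 1.5-fold and neither passed 2-fold. Within the arrays, the Lcp2 ratio exceeded the Lat ratio by 0.83 and 0.93, a difference that no centring can alter. Grap2 itself stood at -0.29 on array 1 and 0.24 on array 2, with no common sign. Myeloid cells, platelets and mast cells are known to use SLP-76 too. Of 15 monocyte and macrophage markers 7 were called higher at 2-fold and 0 lower, beside 4.20% and 0.970% of all genes. Of these 15, 12 had a mean above 0 and 3 below (range -0.45 to 2.48). Called higher at 2-fold were also 3 of 5 neutrophil and 2 of 2 measured platelet markers, with 0 lower. Of 4 mast cell and basophil markers 0 were called at 2-fold and 1 was higher at 1.5-fold, beside 7.83% of all genes. All 4 lay above 0 on both arrays (median 0.95, range 0.17 to 1.20). The part of these cell types in the Lcp2 ratio was not tested.

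The CD3 chains did not move as a block. Cd3e (Entrez gene 12501), the chain that pairs with both CD3 delta and CD3 gamma, stood at -0.14 on array 1 and 0.12 on array 2, a mean of -0.01 ± 0.13. It was the only 1 of the 10 genes with opposite signs on the arrays, and its deposited values, -0.0443 and -0.0289, had the same sign on both. Cd3d (Entrez gene 12500), the delta chain, stood at -0.17 on array 1 and -0.17 on array 2, a mean of -0.17 ± 0.002. Cd3g (Entrez gene 12502), the gamma chain, stood at 0.33 on array 1 and 0.41 on array 2, a mean of 0.37 ± 0.04 (1.29-fold). Cd3g therefore exceeded Cd3d by 0.50 on array 1 and 0.58 on array 2, and Cd3e by 0.47 and 0.29. In the RefSeq gene table (GRCm38.p6), Cd3g, Cd3d and Cd3e follow each other on chromosome 9 with 0 genes starting between neighbours.

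Cd247 (Entrez gene 12503), the zeta chain, which carries several of the complex's tyrosine activation motifs, gave the least settled value. It stood at -0.42 on array 1 and -1.34 on array 2, a mean of -0.88 ± 0.46 (1.84-fold lower). Both arrays lay below 0, yet array 1 missed 1.5-fold while array 2 passed 2-fold. Its spread was larger than that of 82.4% of all genes, whereas 8 of the 10 genes had a spread under the overall median. Cd247 lay below Cd3e by 0.28 on array 1 and by 1.46 on array 2, so the size of a gap between the zeta chain and the rest of the complex cannot be read from these arrays. Natural killer cells are known to use the zeta chain as well. Of 7 of their markers 1 (Klrd1) was called lower at 2-fold and 0 higher, beside 0.970% and 4.20% of all genes. At 1.5-fold 1 was lower and 1 (Klrg1) higher, so the list had no common direction (median -0.30, range -1.75 to 1.22). The part of these cells in the Cd247 ratio was not tested.

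**Figure D2:**
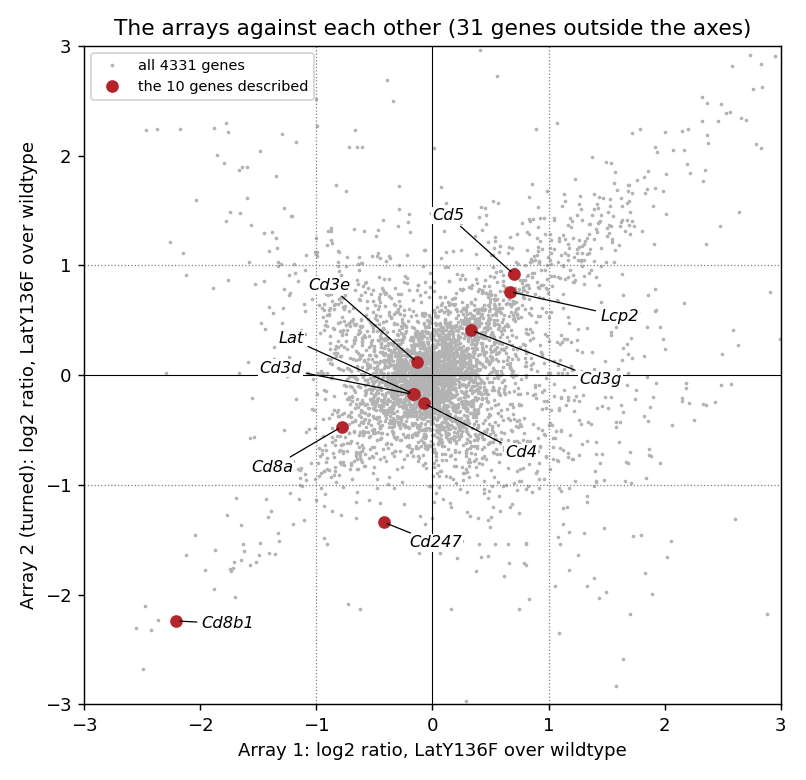
Log2 ratio of LatY136F over wildtype on array 1 (horizontal axis) against array 2 with its sign turned (vertical axis) for all 4331 genes (grey) and the 10 genes described (red); dotted lines mark 2-fold, and 31 genes lie outside the axes. Cd8b1 sits at the low end of both axes, Cd247 is low on array 2 mainly, and Cd3e is the 1 red point in a quadrant of opposite signs.

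Of the coreceptors, Cd4 (Entrez gene 12504), which binds MHC class II and was the antigen used to select the cells, stood at -0.07 on array 1 and -0.26 on array 2, a mean of -0.17 ± 0.09 (1.12-fold lower). Zbtb7b, the transcription factor ThPOK of the CD4 lineage, stood at -0.08 and 0.20. Neither CD4 marker was thus apart by 1.5-fold between cells selected alike. Because only ratios are known, they cannot show how pure either preparation was.

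Cd8b1 (Entrez gene 12526), the beta chain of the CD8 coreceptor for MHC class I, was the gene furthest from 0. Its deposited log10 values were -0.668 on array 1 and 0.682 on array 2. It stood at -2.21 on array 1 and -2.24 on array 2, a mean of -2.22 ± 0.02 (4.67-fold lower in LatY136F), with 0.185% of all genes at or below it. Cd8a (Entrez gene 12525), the alpha chain, stood at -0.78 on array 1 and -0.47 on array 2, a mean of -0.63 ± 0.16 (1.54-fold lower). Array 1 passed 1.5-fold for Cd8a and array 2 did not. The CD8 chains thus shared a direction and differed in size: Cd8b1 lay 1.42 below Cd8a on array 1 and 1.77 below it on array 2, a mean gap of 3.02-fold. Against Cd4, Cd8b1 was lower by 2.13 on array 1 and 1.98 on array 2, and Cd8a by 0.71 and 0.21. Cd8b1 and Cd8a are neighbours on chromosome 6, with 0 genes starting between them in the RefSeq table. As background, CD8 T cells make the alpha and beta chains as a pair, while some mouse dendritic cells make the alpha chain without the beta chain.

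The genes nearest to Cd8b1 over the 2 arrays were Usp28, a ubiquitin protease, at a distance of 0.15, Igha, an immunoglobulin heavy chain, at 0.23, and Cd79b, a signalling chain of the B cell receptor, at 0.30. Only 1 gene lay within 0.2 of it. Markers of other lineages are given beside Cd8b1; over all genes, 0.970% were lower and 4.20% higher at 2-fold. Of 12 B cell markers, 7 were lower at 2-fold and 0 higher, with a median of -1.26 and a range of -2.29 to 0.63. Of 6 dendritic cell markers, 1 (Ly6d) was lower at 2-fold and 0 higher, while at 1.5-fold 1 (Itgax) was higher. The dendritic list had no common direction, as 4 of the 6 had opposite signs on the arrays (median -0.15, range -1.32 to 0.74). Monocyte and macrophage markers went the other way from B cell markers, with 7 of 15 higher and 0 lower (median 1.18, range -0.45 to 2.48). So did 3 of 5 neutrophil markers (median 2.50, range 0.16 to 3.62). Summed levels of these markers could not be formed from ratios. Their part in the Cd8b1 and Cd8a ratios was not tested, and fewer cells of a type cannot be told apart from less RNA per cell in such bulk RNA.

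**Figure D3:**
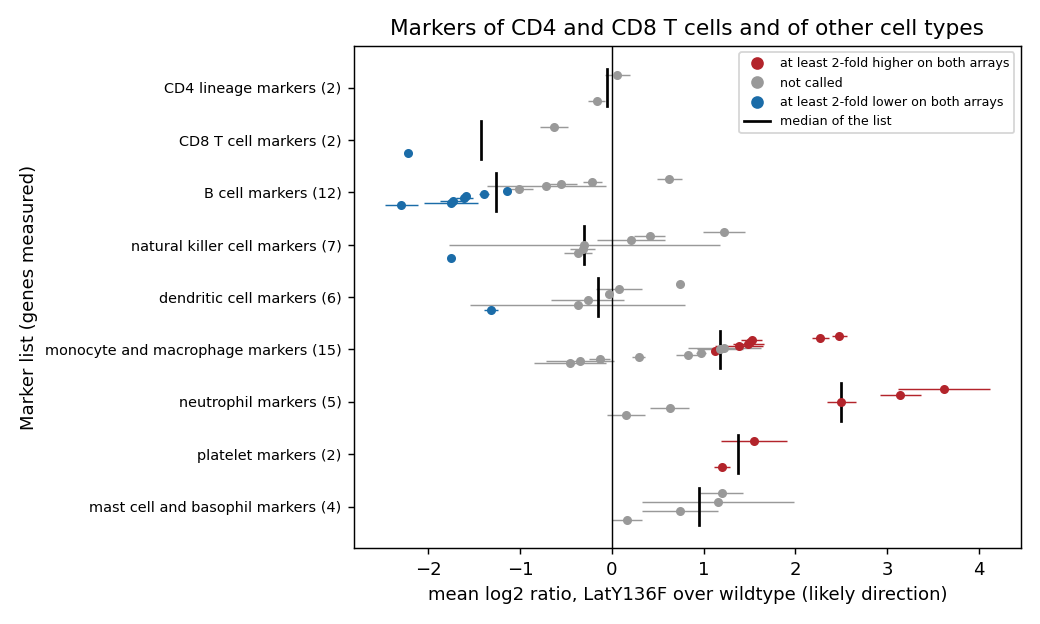
Mean log2 ratio of LatY136F over wildtype (horizontal axis) of the measured genes of 9 marker lists (rows, number of genes in brackets); bars reach from the mean to either array, colours mark genes at least 2-fold apart on both arrays, and black lines are list medians. Both CD4 markers lie within 0.2 of 0. Cd8b1 and 7 of 12 B cell markers are at least 2-fold lower, beside 0.970% of all genes. Of 15 monocyte and macrophage markers, 7 are at least 2-fold higher, beside 4.20% of all genes. The CD8 T cell row holds only Cd8a and Cd8b1, and the CD4 row Cd4 and Zbtb7b. Cd4, Cd8a and Cd8b1 are thus plotted again here and are no separate evidence on lineage.

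Cd5 (Entrez gene 12507), a surface receptor that dampens T cell receptor signalling and whose surface amount on T cells is known to follow the strength of that signalling, was the highest of the 10. It stood at 0.70 on array 1 and 0.92 on array 2, a mean of 0.81 ± 0.11 (1.75-fold higher in LatY136F). It exceeded the Lat ratio by 0.86 on array 1 and by 1.09 on array 2. Cd6, its closest relative among the accessory receptors, stood at 0.38 on array 1 and 0.84 on array 2, and so passed 1.5-fold on array 2 alone. A subset of B cells also carries Cd5. Of 12 B cell markers 7 were lower at 2-fold and 0 higher, beside 0.970% and 4.20% of all genes (range -2.29 to 0.63). The part of B cells in the Cd5 ratio was not tested.

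Ordered by mean, the genes ran Cd8b1, Cd247, Cd8a, Cd3d, Lat, Cd4, Cd3e, Cd3g, Lcp2 and Cd5. The spans of the 2 arrays separated Cd8b1 from all others, the low-lying Cd247 and Cd8a from Cd3d, Cd3g from Cd3e, and Lcp2 and Cd5 from Cd3g. They overlapped between Cd247 and Cd8a, between Lat, Cd4 and Cd3e in turn, and between Lcp2 and Cd5. Cd3d and Lat, at -0.17 each, were separated by far less than the usual spread of 0.15. The arrays gave the same sign for 9 of the 10 genes, against 55.8% of all genes.

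The other genes of the pathway were described by 4 lists, of which 36 of 73 genes were measured. Their median was 0.09, with 2 genes at least 2-fold higher, 1 at least 2-fold lower and 32 that did not reach 1.5-fold on both arrays. Over all genes the 2-fold shares were 4.20% and 0.970%, and 3865 of 4331 did not reach 1.5-fold, so these counts lie near the background. None of 12 symbols of T cell receptor constant regions and loci had a probe. Of 11 further adaptors, Dok2, an adaptor that restrains signalling downstream of tyrosine kinases, was higher at 2.53 on array 1 and 2.39 on array 2 (mean 2.46 ± 0.07). Dok2 is also used by myeloid cells, whose markers were higher, and their part was not tested. None of the other 10 adaptors reached 1.5-fold on both arrays, and Grb2, which binds Lat, stood at 1.09 and -0.32 with no common sign. None of 10 kinases, exchange factors and phospholipase genes did so either. Zap70, the kinase that phosphorylates Lat, stood at 0.40 on array 1 and 0.79 on array 2.

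Of 15 costimulatory and accessory receptors, 2 were higher and 1 was lower at 1.5-fold on both arrays, beside 7.83% and 2.93% of all genes. Ctla4, the inhibitory receptor for CD80 and CD86, stood at 1.04 and 1.15 and was also higher at 2-fold. Icos, a costimulatory receptor of activated T cells, stood at 0.84 and 0.70. Cd27, a costimulatory receptor of the tumour necrosis factor receptor family, was lower at 2-fold, at -1.96 and -1.78. Cd28 stood at -0.10 and -0.06 and Cd2 at 0.38 and 0.44. The other 12 did not reach 1.5-fold on both arrays, and the median of the 15 was 0.23. Lag3, among these 12, had the highest mean of the list, 1.25, at 1.92 on array 1 and 0.58 on array 2. It narrowly missed 1.5-fold on array 2. Of the 15 means, 8 lay above 0 and 7 below.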

How the data were processed

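Two-colour arrays of LatY136F against wildtype splenic CD4+ alpha beta T cell RNA formed a dye-reversal pair, per the labels. The deposited table holds 1 value per probe and array, read here as a log10 ratio of channel 2 over channel 1. The sources used here do not give its scale, direction, background correction or normalization. The depth of signal is unknown, and precision is limited by the 2 arrays. The array medians were -0.0033 and 0.0070 (deposited log10), and the deposited columns had a Pearson r of -0.21 over 8014 probes.

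Values were multiplied by 3.32 to give log2, array 2 was turned, and each array was centred (Python 3.11.15, pandas 2.3.3). The platform annotation held 1 symbol for 4654 probes, more than 1 for 73 and none for 3287. Of the 4654, 4640 had an identifier in the RefSeq gene table, as did all 10 genes described. Probes of a gene were averaged, leaving 4331 genes, and no filter on low values was applied. None of the 10 genes had a deposited value of exactly 0. A gene was called when at least 2-fold (or 1.5-fold) apart on both arrays in 1 direction. Only the 2-fold rule was run on ratios drawn with known changes, as a check of the code. That run does not measure how often a call on these arrays is wrong. No test was made.

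Named genes were the 10 genes, up to 4 genes of each pathway list at least 1.5-fold apart on both arrays, and the 3 genes nearest to Lat and to Cd8b1. Gata3, Grap2, Grb2, Zap70, Cd6, Cd28, Cd2, Lag3 and Zbtb7b were named outside that rule, after their values were seen. So were the markers Klrd1, Klrg1, Ly6d and Itgax, and the genes given under other observations. The genes, lists and thresholds were chosen with earlier results of these data known. Alternatives were no centring, the probe furthest from 0, either array alone, scaled arrays, the turned sign, a log2 reading, calls on the mean and leaving out values of 0.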

Additional observations from a re-analysis of the deposited data

How the results depend on the processing

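Without centring, the median of the 10 genes was -0.18. Over either array alone, the genes at least 2-fold apart numbered 1 to 2, all lower, because array 2 added Cd247. Those at least 1.5-fold lower numbered 2 on each, array 1 adding Cd8a and array 2 Cd247, and the median ran from -0.17 to -0.15. With the sign turned, 1 gene was 2-fold higher and 0 lower, 1 was 1.5-fold higher and 2 lower, and the median was 0.17; Cd8b1 became 2.22, Lcp2 -0.71 and Cd5 -0.81. Read as log2, 0 genes were 2-fold apart (0 lower), 1 was 1.5-fold apart, 0 of them higher, and the median was -0.050, since every value shrinks by the same factor. Calls on the mean gave 5 genes at 1.5-fold, 3 of them lower, by adding Cd247 and Cd8a. Scaling, the probe furthest from 0 and leaving out values of 0 changed no count; with 1 probe each and no value of 0, the last 2 could not change these genes. Apart from the turned sign, 69 of 70 alternative values of single genes kept their sign, and the exception was Cd3e on array 2 alone. For the 9 genes with the same sign on both arrays, only dropping the centring could have turned it. The count therefore mostly restates that the arrays agreed in sign for these genes, and is no separate check.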

Other observations

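The lists in this part were chosen after the results were seen. The class II list held genes of MHC class II, the ligand of CD4, and of its peptide loading. Of its 10 measured genes, 1 was lower in LatY136F cells by 1.5-fold on both arrays, beside 2.93% of all genes, and 0 by 2-fold. The lower gene was H2-Eb1, at -0.66 and -0.73. The mean was below 0 for 9 of the 10 (median -0.51), against 2163 of all 4331 genes, which was not tested. H2-Aa stood at -0.55 and -0.75, and Cd74, the invariant chain, at -0.51 and -0.65. B cells carry MHC class II and their markers were lower, while monocyte and macrophage markers were higher; the part of either was not tested. The class I list held some genes of MHC class I, the ligand of CD8, and of its peptide loading, and was centred near 0 (12 measured, median 0.10). Further class I genes with a probe were not in the list and lay on either side of 0, such as H2-K2 (mean 0.36) and H2-M9 (mean -0.58). H2-K1 stood at 0.68 and 0.36. Cd1d1, which presents lipids to natural killer T cells, was the 1 gene of the list past 1.5-fold on both arrays, at -0.93 and -1.08. Cd1d2, outside the list, passed it too, at -0.96 and -1.03. Some of the H2 class I genes are near-identical, so which of them a probe reads is uncertain.

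None of 8 measured regulators of CD4 and CD8 lineage genes reached 1.5-fold on both arrays (median -0.03). Runx3, which acts on Cd4 and Cd8 genes in the CD8 lineage, stood at -0.23 and 0.07, and Runx1 at 0.52 and 0.36. Of 6 T cell receptor variable segments with a probe, 5 had opposite signs on the arrays, and Trbv1 stood at -0.80 and -0.79 (1.74-fold lower). Variable segments resemble each other, so these assignments are uncertain as well.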
